A study of Mus musculus with 12 samples.

Results

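The 4 CCAAT/enhancer binding protein (C/EBP) genes Cebpa, Cebpb, Cebpd and Cebpg were followed in C2C12 cells, an established mouse myoblast line that divides in growth medium and forms muscle fibres in differentiation medium. They were chosen by gene symbol, with their levels and their responses in these libraries already known, so their values are given as a description with no test. All 4 were among the 12230 genes with enough reads to be tested, of 23446 genes in the table. Messenger RNA was sequenced in 12 libraries, 3 in each of 4 groups. The groups were growth medium (GM) with phosphate-buffered saline (PBS) as the control, GM with acetoacetate (AA), a ketone body, differentiation medium (DM) with PBS, and DM with AA. Treatment lasted 12 h in each group. All libraries came from the same cell line, and no label says whether replicates of a group were separate cultures, so p-values speak of the spread among these samples, which may be technical.

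C/EBP proteins are basic leucine zipper (bZIP) transcription factors that bind DNA as dimers, with one another or with related bZIP proteins. C/EBPb and C/EBPd are induced early by inflammatory cytokines, glucocorticoids and cyclic AMP, and they drive acute phase genes. In fat cell precursors they act ahead of C/EBPa, which keeps adipocyte, liver and myeloid genes on and slows cell division. C/EBPg lacks an activation domain and works as a partner, among others of ATF4 in the response to amino acid shortage. In muscle stem cells C/EBPb is known to keep Pax7 expressed and to hold back MyoD and differentiation.

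RefSeq promoters on GRCm38.p6 were matched for 3 of the 4 members, Cebpa, Cebpb and Cebpg. They are shown as a description of the sequence around the start site, and Cebpd, without a match, is absent. Any part of these sequences in the responses of the members was not tested. Each line runs 5′ to 3′ on the gene's strand from 250 bases before the start site to 30 bases after it. Capitals mark TGACG (the core of cyclic AMP response elements), TATAAA (the TATA box) and CCAAT, on either strand.
Cebpa, chr7:35119043-35119322, plus strand: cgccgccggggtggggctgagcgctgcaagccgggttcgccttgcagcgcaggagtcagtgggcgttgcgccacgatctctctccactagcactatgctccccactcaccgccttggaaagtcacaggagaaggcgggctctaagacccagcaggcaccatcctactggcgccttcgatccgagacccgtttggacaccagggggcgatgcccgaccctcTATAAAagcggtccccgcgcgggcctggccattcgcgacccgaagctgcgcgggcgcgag
Cebpb, chr2:167688665-167688944, plus strand: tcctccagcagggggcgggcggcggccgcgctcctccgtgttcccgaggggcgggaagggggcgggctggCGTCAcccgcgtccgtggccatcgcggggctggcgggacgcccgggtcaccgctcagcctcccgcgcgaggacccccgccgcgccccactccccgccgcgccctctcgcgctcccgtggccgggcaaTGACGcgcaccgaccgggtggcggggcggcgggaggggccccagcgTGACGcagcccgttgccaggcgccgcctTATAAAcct
Cebpg, chr7:35056537-35056816, minus strand: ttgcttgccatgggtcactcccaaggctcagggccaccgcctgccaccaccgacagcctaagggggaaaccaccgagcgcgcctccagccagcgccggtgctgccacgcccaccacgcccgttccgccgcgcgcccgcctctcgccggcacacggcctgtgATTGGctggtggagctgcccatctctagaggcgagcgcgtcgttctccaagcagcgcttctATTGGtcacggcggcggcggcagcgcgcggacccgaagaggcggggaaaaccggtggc
GC content was 67.1% for Cebpa, 79.6% for Cebpb and 70.7% for Cebpg. The Cebpb window held 3 matches to TGACG, at -180 on the opposite strand and at -53 and -7 on the gene's strand, counted from the start site. The Cebpa and Cebpg windows held 0, and 19.9% of 32851 RefSeq promoter windows of the same length held at least 1. TATAAA stood at -30 in Cebpa and at 22 after the start in Cebpb, and at no place in Cebpg (13.1% of promoters held it). CCAAT had 2 matches in Cebpg, both on the opposite strand, at -89 and -28, and 0 in the others (36.1% of promoters). GGGCGG, the core of SP1 sites, occurred 5 times in Cebpb, of which the matches at -238 and -234 overlap, and 0 times in the other two (34.7% of promoters). The C/EBP pattern TTGCNNAA and the STAT pattern TTCNNNGAA had 0 matches in these 3 windows (10.4% and 7.8% of promoters held them). Both strands were searched for every motif, and a match describes letters, not binding. No other overlap between matches occurred among these motifs.

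In GENCODE M21 on GRCm38, Cebpa lies on the plus strand of chromosome 7 at chr7:35119293-35121928 and Cebpg on its minus strand at chr7:35046422-35056573. Cebpb is at chr2:167688915-167690418 and Cebpd at chr16:15887286-15891031, both on the plus strand. The exons of Cebpa, Cebpb and Cebpd each formed 1 unbroken block, and those of Cebpg formed 3. The reads themselves were aligned to mm9, so these coordinates are a reference and not those of the alignment.

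Libraries held 7959519 to 9893564 reads in genes, and the 3 DM-AA libraries (8027518 to 8245402) were each shallower than every GM library. The 6 myoblast markers were detected in all 12 libraries, and Des, encoding desmin, was the highest. Their summed level in CPM (reads scaled to library size) was higher with AA in both media without overlap: GM libraries ranged from 2690 to 2780 for PBS against 3140 to 3260 for AA, and DM libraries from 3110 to 3150 for PBS against 3600 to 3800 for AA. Des weighed most in this sum. Myod1 alone of the 6 went the other way in GM, at a mean of 225 CPM in GM-PBS against 178 in GM-AA. In DM the means of Myod1 were 165 CPM with PBS and 172 with AA. The part of the myoblast markers in the results below was not tested. Of 6 adipocyte markers, all were under 1 CPM on average, and Plin1 and Lep were at 0 in every library. Among 8 leukocyte markers, Emr1 was at 0 in every library and Ptprc was at most 0.116 CPM, while Cd14 stood highest (10.2 to 17.3 CPM). Of 5 hepatocyte markers 3 were at 0, and Apob, the highest, was 3.29 CPM in GM-PBS against 12.0 in GM-AA and 1.43 in DM-PBS against 6.16 in DM-AA. Krt19 was the highest of 5 epithelial markers, at 85.7 CPM in GM-PBS, 71.2 in GM-AA, 28.7 in DM-PBS and 29.4 in DM-AA, and the other 4 averaged under 1 CPM in every group. The 4 endothelial markers were all under 1 CPM on average.

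Cebpd, the early and cytokine-inducible member, had the steadiest pattern. Levels below are RPKM, reads scaled to library size and to the deposited gene length, the union of all possible exons of a gene. Comparing members by RPKM rests on those lengths: 2640 bases for Cebpa, 1504 for Cebpb, 2260 for Cebpd and 4702 for Cebpg. GENCODE M21 gives 2636, 1504, 3746 and 5621 exon bases in that order. Cebpd stood at 25.5, 26.3 and 26.7 RPKM in the 3 GM-PBS libraries and at 17.4, 15.4 and 17.5 in GM-AA. In DM-PBS it stood at 8.84, 9.12 and 9.80 RPKM, and in DM-AA at 3.39, 3.24 and 3.08. The 4 groups were fully separate and in the order in which they are given here, with means of 26.2 ± 0.589, 16.8 ± 1.2, 9.26 ± 0.495 and 3.24 ± 0.158 RPKM (SD, n = 3). With AA, the log2 difference was -0.65 ± 0.0593 (SE) in GM and -1.52 ± 0.0946 in DM, the latter a level 2.88-fold lower. DM against GM gave -1.53 ± 0.0652 in PBS and -2.40 ± 0.0853 in AA, a level 5.27-fold lower. In these bulk libraries, fewer cells with Cebpd and less of its RNA per cell cannot be told apart, and the same holds for the other members. In reads, Cebpd went from 765 to 799 a library in GM-PBS to 89 to 96 in DM-AA. With any single library left out, the AA difference of Cebpd ranged from -0.69 to -0.60 in GM and from -1.56 to -1.48 in DM.

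Cebpb, its close relative and the member best known in muscle stem cells, was the one whose replicates agreed least. It was at 15.2, 8.63 and 11.1 RPKM in GM-PBS and at 13.3, 5.02 and 9.51 in GM-AA. In DM-PBS the 3 values were 9.67, 24.2 and 5.90 RPKM, and in DM-AA 3.13, 5.67 and 3.06. The second DM-PBS library was the highest of all 12, and the GM groups overlapped in part. Means were 11.6 ± 3.31 (GM-PBS), 9.26 ± 4.13 (GM-AA), 13.3 ± 9.68 (DM-PBS) and 3.96 ± 1.48 RPKM (DM-AA; SD, n = 3). The log2 difference with AA was -0.34 ± 0.289 (SE) in GM and -1.75 ± 0.341 in DM. In DM the 3 AA libraries lay below the 3 PBS libraries, but only just: the lowest PBS library had 13.7 CPM and the highest AA library 13.1. The mean difference in DM corresponded to a level 3.35-fold lower. Without the second DM-PBS library the AA difference of Cebpb in DM was -1.02, and without the second DM-AA library -2.10. In GM it ran from -0.69 without the first GM-AA library to -0.05 without the second, and was -0.09 without the first GM-PBS library. DM against GM in PBS gave 0.15 ± 0.273 with overlapping groups, and its direction turned to -0.58 without the second DM-PBS library and to -0.03 without the second GM-PBS library. DM against GM in AA gave -1.26 ± 0.361, again with overlapping groups.

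Cebpa, the late factor of fat, liver and myeloid cells, was present at low but clear levels. It was at 5.14, 4.33 and 3.93 RPKM in GM-PBS and at 3.50, 2.72 and 3.47 in GM-AA. In DM-PBS it was at 7.42, 8.74 and 6.42 RPKM, and in DM-AA at 4.11, 4.62 and 3.94. All 3 DM-PBS libraries were above every other library, GM-AA was the lowest group throughout, and GM-PBS and DM-AA overlapped. Means were 4.47 ± 0.617 in GM-PBS, 3.23 ± 0.442 in GM-AA, 7.53 ± 1.17 in DM-PBS and 4.22 ± 0.354 in DM-AA (RPKM, SD, n = 3). The log2 difference with AA was -0.48 ± 0.128 (SE) in GM and -0.85 ± 0.112 in DM. DM against GM gave 0.72 ± 0.110 in PBS and 0.36 ± 0.131 in AA, so Cebpa was higher in DM where Cebpd was lower. Reads ranged from 97 to 299 a library.

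Cebpg, the partner without an activation domain, varied least across groups. It was at 7.89, 9.25 and 8.69 RPKM in GM-PBS and at 10.2, 10.2 and 10.1 in GM-AA. In DM-PBS it was at 7.29, 7.52 and 7.93 RPKM, and in DM-AA at 7.76, 8.34 and 8.89. GM-AA lay above all other libraries, and the other groups formed a run in which neighbours touched. Means were 8.61 ± 0.683 (GM-PBS), 10.2 ± 0.0566 (GM-AA), 7.58 ± 0.328 (DM-PBS) and 8.33 ± 0.563 RPKM (DM-AA; SD, n = 3). The log2 difference of Cebpg with AA was 0.23 ± 0.0618 (SE) in GM and 0.13 ± 0.0654 in DM, where the groups overlapped. Without the third DM-AA library the DM value was 0.08. DM against GM gave -0.21 ± 0.0646 in PBS and -0.31 ± 0.0626 in AA. In PBS the GM and DM libraries of Cebpg overlapped by a narrow margin in RPKM and were just separate in CPM (58.5 the lowest in GM, 57.5 the highest in DM).

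**Figure D1:**
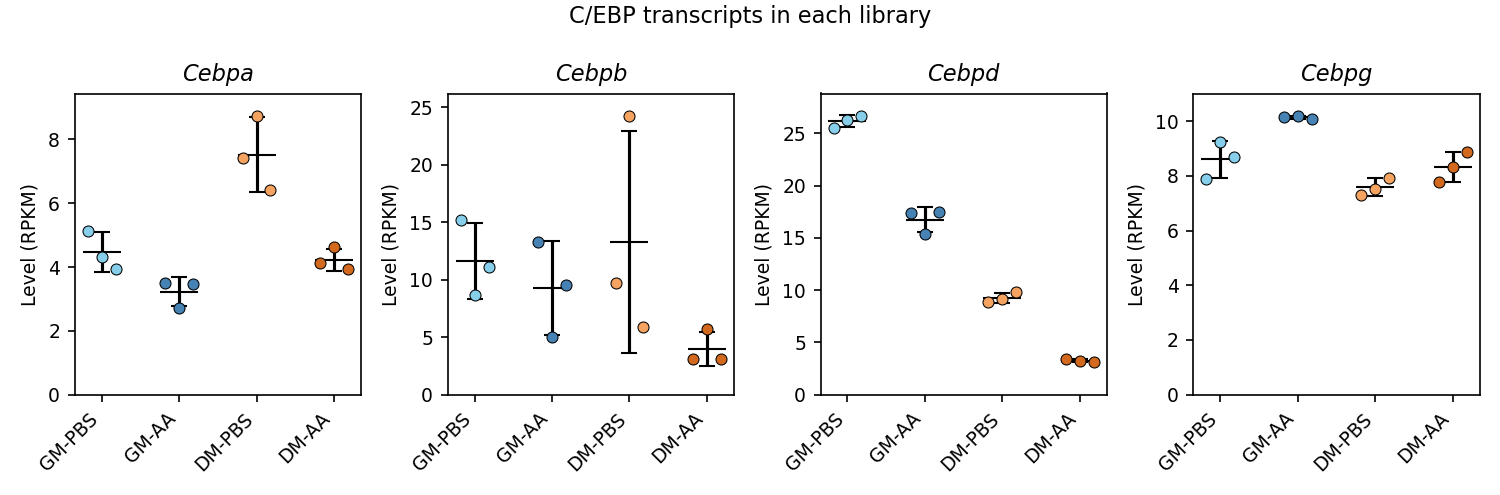
Level of each C/EBP transcript (RPKM, vertical axis from 0) in each of the 12 libraries by group; points are libraries, and bars give the mean ± SD of 3. Cebpd forms 4 separate clusters with means from 26.2 to 3.24 RPKM, whereas the 3 DM-PBS values of Cebpb span 5.90 to 24.2.

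Compared on the RPKM scale, the order of the 4 transcripts differed between groups. In GM-PBS Cebpd was the most abundant and Cebpa the least, and Cebpb and Cebpg between them overlapped. In GM-AA Cebpd and Cebpa kept those places, and Cebpb and Cebpg again overlapped. In DM-PBS the mean of Cebpb was the highest but its libraries overlapped those of all other members. Cebpd there lay above Cebpg and Cebpa, which overlapped. In DM-AA Cebpg was the highest in every library, Cebpa lay above Cebpd, and Cebpb overlapped both.

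The summed level of the 4 transcripts was 50.9 ± 2.65 RPKM in GM-PBS, 39.4 ± 5.60 in GM-AA, 37.6 ± 10.5 in DM-PBS and 19.7 ± 1.86 in DM-AA (SD, n = 3). Cebpd made up 51.6% of that sum on average in GM-PBS, 42.8% in GM-AA, 25.9% in DM-PBS and 16.5% in DM-AA. The share of Cebpg went the other way, from 17% in GM-PBS to 42.4% in DM-AA, with 26.1% in GM-AA and 21.2% in DM-PBS. Cebpa took 8.77% and 8.21% in the GM groups and 20.4% and 21.4% in the DM groups (PBS, then AA). The share of Cebpb was between 15.1% and 48.8% in single libraries. These are shares of messenger RNA and not of protein or dimers, and they rest on the gene lengths given above.

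**Figure D2:**
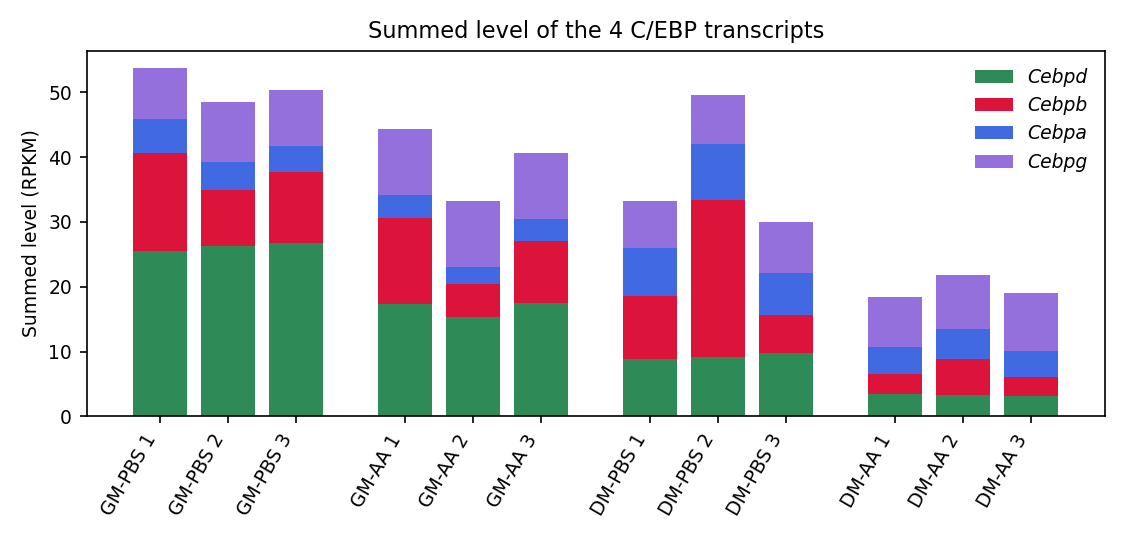
Summed level of Cebpa, Cebpb, Cebpd and Cebpg in each library (RPKM, vertical axis from 0), with colours for the 4 transcripts. The Cebpd part shrinks from GM-PBS to DM-AA while the Cebpg part stays of similar height, and the second DM-PBS library stands out by its Cebpb part.

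The spread between libraries of a group was widest for Cebpb. Its within-group SD of log2 CPM was 0.697, the highest of 1852 tested genes of similar level, whose median was 0.122. In the fit, the gene-wise biological coefficient of variation of Cebpb was 24%, the 3rd highest of 12230 genes, against a common value of 4.08%. Rpph1 and Tpt1 ranked above it, at 32.7% and 28.5%, and were named after their values were seen. Rpph1 was low, at 0.116 to 3.71 CPM. The within-group SD of Cebpa was 0.189, rank 96 of 1863 genes of similar level. Cebpd (0.0743, median of genes of similar level 0.0914) and Cebpg (0.0801, median 0.0767) were close to other genes of their level. The Cebpb counts behind this ranged from 59 to 458 reads a library.

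**Figure D3:**
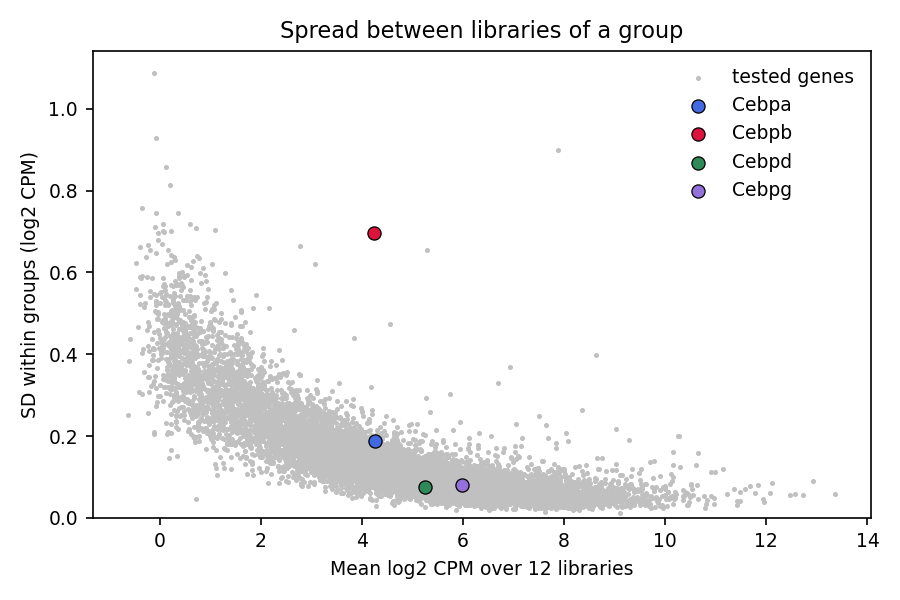
Within-group SD of log2 CPM (vertical axis) against mean log2 CPM over the 12 libraries (horizontal axis) for all tested genes in grey, with the 4 C/EBP genes in colour. Cebpb, at 0.697, lies far above genes of similar level, Cebpa at 0.189 on the upper side, and Cebpd and Cebpg within the bulk.

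Exon GC content also varied among the members, and across all genes it was correlated with the AA effect. GC content was 62.6% for Cebpa and 67.2% for Cebpb, at the 98.9th and 99.9th percentile of tested genes, 51.6% for Cebpd and 43.3% for Cebpg. Over 12153 genes with a GC value (99.4% of those tested), Spearman's rho between GC and the AA effect was -0.274 in GM and -0.266 in DM. For the medium in PBS it was 0.0371. Genes are not independent replicates, and these values share the libraries. The 329 tested genes within 2 points of Cebpa in GC had a median AA difference of -0.12 in GM and -0.10 in DM. The 40 such genes around Cebpb had -0.17 and -0.14, the 2545 around Cebpd -0.02 and -0.02, and the 2079 around Cebpg 0.05 and 0.07. With each library's trend on GC and length removed, the AA differences in GM and DM were -0.38 and -0.73 for Cebpa, -0.21 and -1.60 for Cebpb, -0.63 and -1.49 for Cebpd, and 0.17 and 0.07 for Cebpg. Of these, Cebpb in GM and Cebpg in DM moved by more than 1.5 times. For the spread, the 34 genes within 2 points of Cebpb and with a mean of at least 1 RPKM had a median SD of 0.193 and a highest of 1.09. The part of GC content in the spread was not tested.

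Exons of 2 other genes of the table overlap members on the opposite strand, and the strand of the libraries is not given in the sources used here, so reads of the overlap cannot be told apart. In GENCODE M21, Tmem189 covers 20.7% of the Cebpb exons and Spidr 15.0% of those of Cebpd. Cebpd has 3746 exon bases there but a deposited length of 2260 bases. How much of its counted exons Spidr overlaps is therefore not known. With AA, Tmem189 rose by 0.16 ± 0.0545 (log2, SE; adjusted p = 0.0333) in GM, and it rose by 0.31 ± 0.0589 (adjusted p = 0.000125) in DM, opposite in sign to Cebpb. In DM against GM Tmem189 fell by 0.45 ± 0.0579 with PBS (adjusted p = 4.85e-08) and by 0.30 ± 0.0555 with AA (adjusted p = 2.59e-05), in AA the same sign as Cebpb. The AA difference of Spidr was -0.12 ± 0.0758 in GM and 0.04 ± 0.0913 in DM (adjusted p = 0.277 and 0.771). In DM against GM with PBS Spidr fell by 0.88 ± 0.0826 (adjusted p = 6.3e-11). With AA it was -0.71 ± 0.0836 (edgeR's quasi-likelihood test, adjusted p = 8.94e-09), and both had the same sign as Cebpd. For Cebpa and Cebpg such overlaps covered at most 1.9% of exons.

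Set beside all tested genes, the members were called as follows by edgeR's quasi-likelihood test at a 5% false discovery rate (FDR), and nothing is read from these counts because the same contrasts were known when the members were chosen. With AA in GM, 1 of 4 was past the threshold as higher (Cebpg) and 2 as lower (Cebpa, Cebpd), where 9.76% of all genes were higher and 11.0% lower. With AA in DM 0 were higher and 3 lower (Cebpa, Cebpb, Cebpd), against 12.6% and 13.8% of genes. For DM against GM in PBS 1 was higher (Cebpa) and 2 lower (Cebpd, Cebpg), against 27.0% and 27.4%. In AA it was 1 higher (Cebpa) and 3 lower, against 25.9% and 26.3%. Without the first GM-PBS library the counts for AA in GM were 0 higher and 1 lower (Cebpd). Without the second GM-AA library Cebpa dropped out of both comparisons that use it. Cebpg dropped out of DM against GM in PBS without the second GM-PBS library, and Cebpa out of DM against GM in AA without the second DM-AA library. Without the second DM-PBS library, Cebpb joined the lower genes of DM against GM in PBS. Without the low-count filter Cebpb joined the lower genes for AA in GM. Under DESeq2, Cebpb dropped out of DM against GM in AA.

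In CPM, 3 of the 4 members had groups that did not overlap in each of these 4 comparisons. Over all genes that share was 34.0% for AA in GM, 40.1% for AA in DM, 59.4% for the medium in PBS and 57.4% for the medium in AA. The member that overlapped was Cebpb in 3 of them and Cebpg for AA in DM.

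The AA effect in DM less the AA effect in GM was, on the log2 scale, -0.87 ± 0.114 (SE) for Cebpd, -1.40 ± 0.455 for Cebpb, -0.37 ± 0.172 for Cebpa and -0.10 ± 0.0900 for Cebpg. At 5% FDR 0 members were called as higher and 1 (Cebpd) as lower, where 2.58% of all genes were higher and 2.67% lower, and nothing is read from this count, since the contrast was known when the members were chosen. Without the second DM-PBS library the value of Cebpb was -0.68. That of Cebpg ran from -0.16 without the second GM-PBS library to -0.04 without the first, and was -0.05 without the first DM-AA library. Cebpb joined the lower count after correction for GC and length, without the low-count filter, and without the first GM-PBS, the second GM-AA, the first or the third DM-PBS or the second DM-AA library.

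**Figure D4:**
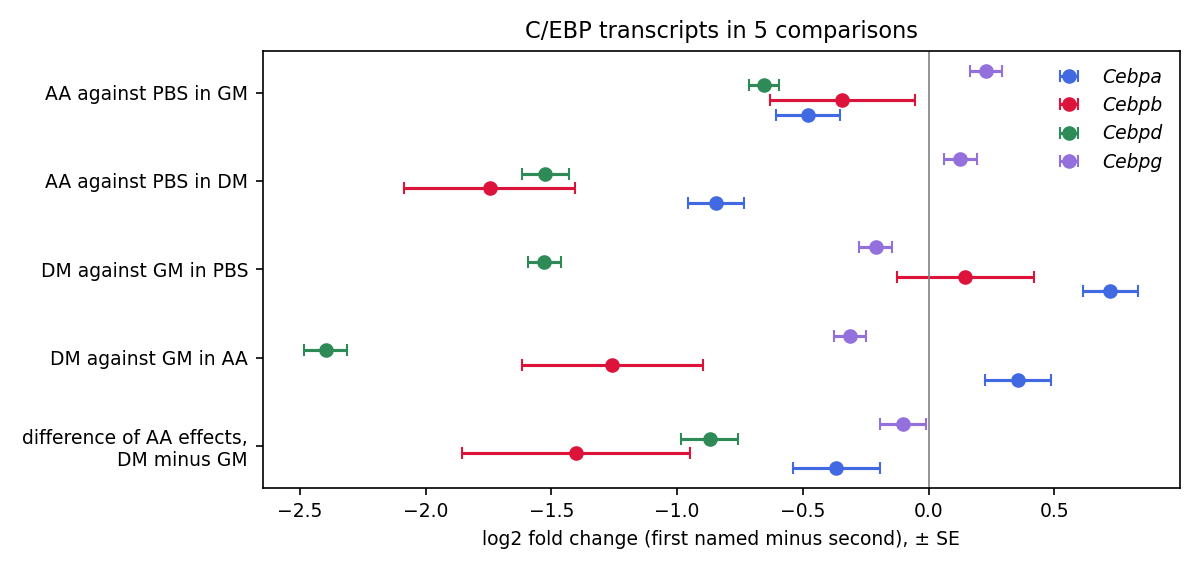
Log2 fold change ± SE (horizontal axis) of each member in the 5 comparisons (vertical axis), where a negative value means lower in the condition named first. Cebpd lies between -2.40 and -0.65 in all 5, Cebpa is lower with AA and higher in DM, and Cebpb has the widest errors.

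The other genes of the family were read from the same fit. They and the gene lists below were also chosen with earlier results of these data known. Their adjusted p-values, from edgeR's quasi-likelihood test unless another is named, are therefore given as a description. Cebpe, a factor of granulocytes, had 0 reads in all 12 libraries. Cebpz, which shares the name but has no bZIP domain of the C/EBP kind, was at 9.18 ± 0.748 RPKM in GM-PBS, 10.6 ± 0.170 in GM-AA, 10.4 ± 0.673 in DM-PBS and 10.6 ± 0.810 in DM-AA (SD, n = 3). It rose with AA in GM by 0.20 ± 0.0663 (log2, SE; adjusted p = 0.0315), but not past the threshold by DESeq2 (adjusted p = 0.0828) or after correction for GC and length (adjusted p = 0.129). Its AA difference in DM was 0.01 ± 0.0657 (adjusted p = 0.914). In PBS it was higher in DM by 0.16 ± 0.0666 (adjusted p = 0.0453), and by DESeq2 the adjusted p was 0.127. Leaving out single libraries also ended both calls of Cebpz, with adjusted p of up to 0.130 and 0.285.

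Ddit3, encoding CHOP, which forms dimers with C/EBP proteins and is induced by stress, stood at 27.9 ± 2.32 RPKM in GM-PBS, 30.8 ± 4.73 in GM-AA, 18.6 ± 1.10 in DM-PBS and 15.9 ± 1.84 in DM-AA (SD, n = 3). Ddit3 fell by 0.62 ± 0.0959 (log2, SE) in DM against GM with PBS (adjusted p = 1.55e-06) and by 0.99 ± 0.0978 with AA (adjusted p = 2.09e-10). Its AA differences, 0.14 ± 0.0878 in GM and -0.23 ± 0.107 in DM, were not past the threshold (adjusted p = 0.296 and 0.111). Without the first GM-AA library the GM value was 0.03, without the third 0.24 and without the first GM-PBS library 0.21. Without the first DM-AA library the DM value was -0.14. After correction for GC and length, the one in DM passed (adjusted p = 0.0392).

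For the gene lists from here on, counts past the threshold are a description, to be read beside the shares of all tested genes. Binding of any factor to the listed genes was not measured. With AA in GM 9.76% of all tested genes were higher and 11.0% lower, and with AA in DM 12.6% and 13.8%. For DM against GM in PBS these shares were 27.0% and 27.4%. Of the other bZIP proteins that can pair with C/EBP factors, 12 of 15 were tested. With AA in GM 4 rose and 5 fell, with a median log2 difference of 0.10 against 0.00 over all tested genes. Atf4, the main factor of the amino acid response and a partner of C/EBPg, rose by 0.40 ± 0.0493 (SE; adjusted p = 2.08e-07). Fosl1 fell by 0.81 ± 0.107 (adjusted p = 7.95e-07) and Junb, another AP-1 protein, by 0.45 ± 0.0576 (adjusted p = 4.45e-07). In DM 2 rose and 3 fell (median -0.11). Junb fell by 0.47 ± 0.0582 (adjusted p = 1.24e-07), Atf5 rose by 0.42 ± 0.0535 (adjusted p = 2.22e-07) and Atf4 by 0.28 ± 0.0494 (adjusted p = 5.82e-05). DM against GM in PBS had 2 higher and 5 lower (median -0.10), led by Fosl1, which fell by 2.10 ± 0.127 (adjusted p = 8.01e-16). Atf5 fell there by 0.83 ± 0.0518 (adjusted p = 1.88e-15) and Fosl2 by 0.61 ± 0.0458 (adjusted p = 2.4e-13). In GM the 4 that rose became 2 by DESeq2 and without the first GM-PBS or first GM-AA library. The 2 higher in DM with PBS became 1 by DESeq2, after correction for GC and length, and when any library other than the second or the third GM-PBS, the first GM-AA or the third DM-PBS was left out.

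The list of receptors, signalling genes and factors upstream of Cebpb and Cebpd transcription was tested in full, 19 of 19. It includes Socs3, which is not an inducer but a feedback inhibitor of the pathway. With AA in GM 1 rose and 6 fell (median -0.06), and in DM 4 rose and 11 fell (median -0.23, against 0.00 over all genes). Egr2, an immediate early factor that acts on Cebpb in fat cell precursors, fell in GM by 0.89 ± 0.0839 (log2, SE; adjusted p = 1.08e-09), while in DM it fell by 1.10 ± 0.0795 (adjusted p = 9.24e-13). Osmr, the oncostatin M receptor, fell by 0.53 ± 0.0528 (adjusted p = 3.02e-09) and 0.77 ± 0.0619 (adjusted p = 1.18e-11). Socs3, a target and inhibitor of STAT3 signalling counted among these, fell by 0.48 ± 0.0499 (adjusted p = 6.85e-09) and 0.52 ± 0.0564 (adjusted p = 7.44e-09). Between media in PBS 4 were higher and 6 lower (median 0.05), where 27.0% of all genes were higher and 27.4% lower. Osmr fell by 0.79 ± 0.0540 (adjusted p = 2.29e-14) and Socs3 by 0.70 ± 0.0508 (adjusted p = 8.96e-14). Lifr, the receptor of leukaemia inhibitory factor, rose by 0.71 ± 0.0561 (adjusted p = 8.2e-13).

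The regulators of C/EBP protein (Tribbles proteins, ligases, kinases and translation factors) were also all tested, 18 of 18. In GM 2 rose and 2 fell with AA (median -0.02), and in DM 4 rose and 4 fell (median 0.03). Trib2, which with the ligase COP1 leads C/EBPa to degradation, fell by 0.89 ± 0.120 (log2, SE; adjusted p = 1.1e-06) in GM and by 0.81 ± 0.134 (adjusted p = 1.83e-05) in DM. Trib1, which does the same, fell by 0.30 ± 0.0688 in GM (adjusted p = 0.00197), and Rfwd2, encoding COP1, rose by 0.43 ± 0.113 (adjusted p = 0.00602). In DM Celf1, an RNA-binding protein that acts on Cebpb translation, rose by 0.35 ± 0.0482 (adjusted p = 7.01e-07) and the cap-binding factor Eif4e by 0.34 ± 0.0560 (adjusted p = 1.55e-05). Between media in PBS 2 were higher and 12 lower (median -0.29), where 27.0% of all genes were higher and 27.4% lower. Cdk2 fell by 0.79 ± 0.0609 (adjusted p = 4.23e-13), Trib1 by 0.64 ± 0.0717 (adjusted p = 2.81e-09) and Cdk4 by 0.42 ± 0.0483 (adjusted p = 4.63e-09). The 4 that fell in DM with AA became 2 without the third DM-AA library. The 2 that rose in GM became 1 by DESeq2 and without the first GM-PBS, the first GM-AA or the second GM-AA library.

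Acute phase and inflammatory genes listed as bound by C/EBPb or C/EBPd had the lowest median of the 8 lists in both AA comparisons. Of 23 genes 14 were tested, and the other 9 had too few reads. With AA in GM 0 rose and 10 fell (median -0.50, against 0.00 over all genes). In DM 0 rose and 9 fell (median -0.61). The chemokine Cxcl5 fell by 1.01 ± 0.0703 (log2, SE; adjusted p = 1.18e-12) in GM and by 1.84 ± 0.0800 (adjusted p = 4.48e-18) in DM. Ptgs2, the inducible cyclooxygenase, fell by 0.59 ± 0.0524 (adjusted p = 3e-10) and 0.82 ± 0.0721 (adjusted p = 1.07e-10). Nos2, the inducible nitric oxide synthase, fell by 1.2 ± 0.101 in GM (adjusted p = 9.34e-11), and the chemokine Ccl2 fell by 0.90 ± 0.0813 in DM (adjusted p = 1.66e-10). For DM against GM in PBS 1 was higher and 11 lower (median -0.86). Nos2 fell by 3.08 ± 0.129 (adjusted p = 5.37e-20), the hyaluronan synthase Has2 by 1.5 ± 0.0554 (adjusted p = 1.79e-21) and Ptgs2 by 1.48 ± 0.0571 (adjusted p = 5.58e-21). Since Cebpd was known to be lower in the same comparisons when this list was written, the count is a description.

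Adipogenic and metabolic genes listed as bound by C/EBPa were tested in 8 of 17 cases, and the adipocyte markers among them were at or near 0 as given above. With AA in GM 0 rose and 1 fell (median -0.16), and in DM 0 rose and 4 fell (median -0.26). Lpin1, a phosphatidate phosphatase, fell by 0.47 ± 0.104 (log2, SE; adjusted p = 0.00126) in GM and by 0.69 ± 0.0829 (adjusted p = 6.41e-08) in DM. In DM Agpat2, which makes phosphatidic acid, fell by 0.34 ± 0.0848 (adjusted p = 0.00276) and the desaturase Scd1 by 0.17 ± 0.0429 (adjusted p = 0.00329). For DM against GM in PBS 4 were higher and 2 lower (median 0.37). Lpin1 rose by 1.04 ± 0.0863 (adjusted p = 2.69e-12) and Scd1 by 0.70 ± 0.0433 (adjusted p = 1.35e-15), while Pparg, the master factor of fat cells, fell by 1.09 ± 0.147 (adjusted p = 1.36e-07).

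Amino acid response genes listed as bound by ATF4 with C/EBP partners were all tested, 19 of 19. In GM 6 rose and 2 fell with AA (median 0.10), and in DM 3 rose and 2 fell (median -0.01). In GM the amino acid transporter gene Slc7a5 rose by 0.38 ± 0.0621 (log2, SE; adjusted p = 3.09e-05) and Asns, asparagine synthetase, by 0.25 ± 0.0707 (adjusted p = 0.0112), while Ddit4, an inhibitor of mTORC1, fell by 0.32 ± 0.0515 (adjusted p = 2.31e-05). The call of Asns was lost without the second GM-PBS library (adjusted p = 0.0589) and without the first GM-AA library (adjusted p = 0.117). In DM Gclm, a subunit of the glutathione-making ligase, fell by 0.54 ± 0.0971 (adjusted p = 6.26e-05). Psat1 of serine synthesis rose by 0.22 ± 0.0508 (adjusted p = 0.0011) and the secreted Stc2 by 0.43 ± 0.129 (adjusted p = 0.0127). Stc2 was not past the threshold without the third DM-PBS, the first DM-AA or the third DM-AA library (adjusted p of up to 0.0802). In DM against GM with PBS 3 were higher and 11 lower (median -0.43). Asns fell by 1.5 ± 0.0862 (adjusted p = 2e-16), Shmt2 by 0.91 ± 0.0507 (adjusted p = 1.03e-16) and Psat1 by 0.63 ± 0.05 (adjusted p = 1.06e-12). The 6 that rose in GM became 3 by DESeq2 and without the third GM-PBS library. The 3 that rose in DM became 1 without the first DM-AA library and 5 after correction for GC and length. The 2 that fell in GM became 1 without the first or the third GM-PBS or the first or the second GM-AA library, and when only the GM groups were fitted. The 2 that fell in DM became 1 by DESeq2 and without the first or the second DM-PBS or the third DM-AA library.

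Muscle genes linked to C/EBPb in myoblasts were all tested, 8 of 8. With AA in GM 5 rose and 2 fell (median 0.46), and in DM 4 rose and 1 fell (median 0.37). Myf5, a myogenic factor of precursors, rose by 0.64 ± 0.0717 in GM (log2, SE; adjusted p = 3.5e-08), and Myod1 fell by 0.34 ± 0.0489 (adjusted p = 3.52e-06). Fbxo32, a ubiquitin ligase of muscle atrophy, fell with AA in both media, by 0.72 ± 0.0493 in GM (adjusted p = 9.22e-13), and in DM by 0.63 ± 0.0478 (adjusted p = 3.04e-12). In DM Myog, encoding myogenin, rose by 0.94 ± 0.0659 (adjusted p = 5.03e-13). Myh3, a myosin of embryonic muscle, rose there by 1.54 ± 0.174 (adjusted p = 2.28e-08), though how reads shared with other myosin heavy chain genes were counted is not stated. Pax7, which C/EBPb is known to maintain, had AA differences of 0.10 ± 0.0896 in GM and 0.05 ± 0.0757 in DM, neither past the threshold (adjusted p = 0.454 and 0.649). In DM against GM with PBS 4 were higher and 2 lower (median 0.45). Myog rose by 2.58 ± 0.0972 (adjusted p = 3.07e-21), Pax7 by 0.75 ± 0.0831 (adjusted p = 2.48e-09), and Myod1 fell by 0.45 ± 0.0492 (adjusted p = 1.98e-09). The 5 that rose in GM became 2 by DESeq2 and 3 when the first GM-PBS, the second GM-AA or the third GM-AA library was left out, or when only the GM groups were fitted.

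**Figure D5:**
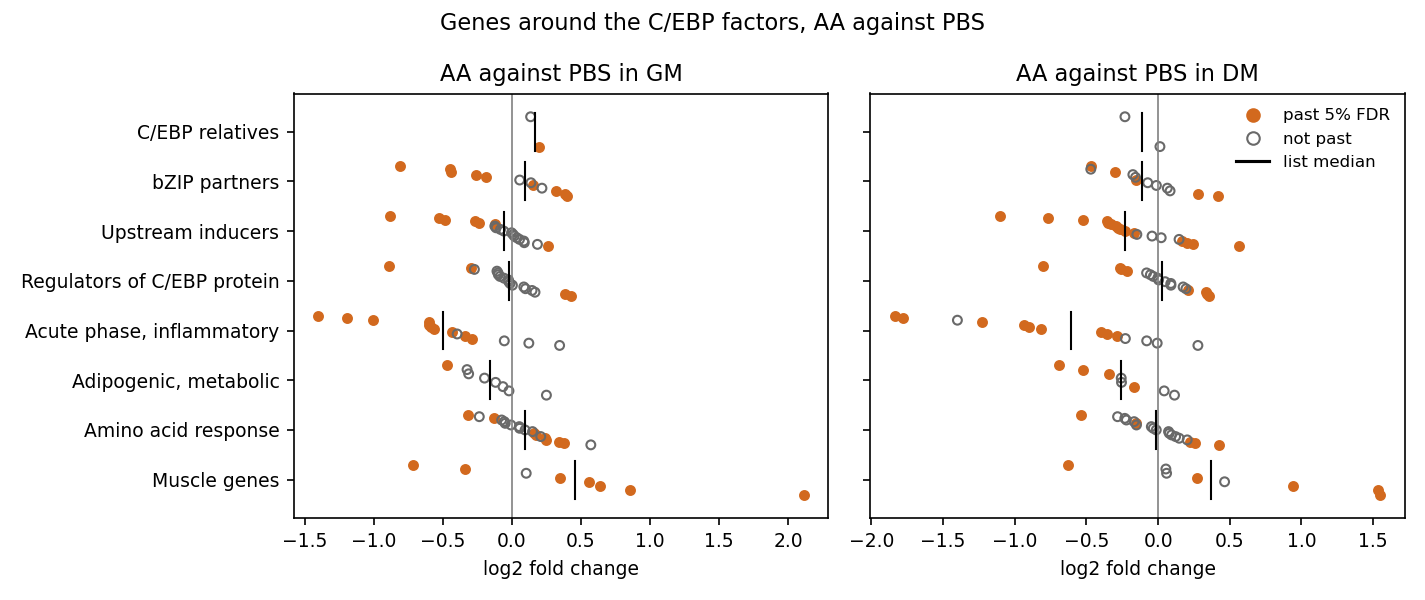
Log2 fold change with AA (horizontal axis) of each tested gene of the 8 lists (rows) in GM and in DM; filled points passed 5% FDR, open points did not, and black lines are list medians. The acute phase and inflammatory list has medians of -0.50 and -0.61, the lowest of the 8 in both media, and the 10 and 9 genes past the threshold are all on the left.

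The genes whose log2 CPM followed each member most closely over the 12 libraries were taken among genes with a mean of at least 1 RPKM, by Pearson's r, as a description. The 12 points share 4 groups, so r largely reflects the group means. For Cebpd they were Hmga2 (r = 0.994), a chromatin protein of growing cells, Rai14 (0.992), Dpy19l1 (0.991) and Thbd, encoding thrombomodulin (0.988). Hmga2 averaged 353 CPM in GM-PBS, 285 in GM-AA, 174 in DM-PBS and 87.7 in DM-AA, the same order of groups as Cebpd. For Cebpa they were Pnrc1 (0.963), Kifc3 (0.962), Ubqln2 (0.956) and Pmepa1 (0.951). Pnrc1, a nuclear receptor coactivator, averaged 112 and 92.6 CPM in GM (PBS, then AA) and 155 and 115 CPM in DM. For Cebpg they were Tfpi (0.974), Anxa4 (0.970), Smc6 (0.969) and Mak16 (0.961). For Cebpb the closest genes were less alike, Lclat1 (0.887), Rab24 (0.873), Macrod1 (0.864) and Zfp839 (0.862), and Lclat1 averaged 128 and 124 CPM in GM and 122 and 102 CPM in DM. By Spearman's rho instead, 0 of the 4 genes named for Cebpd, 2 for Cebpa, 2 for Cebpg and 3 for Cebpb stayed among the 4 closest.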

How the data were processed

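RNA of C2C12 cells was measured in 12 libraries. The submitters' processing notes name BWA 0.5.9-r16 and the mm9 build. The counting rule, the handling of multiple matches, library strand and annotation: not given in the sources used here. Per the file headers, the authors deposited unnormalized counts, RPKM and lengths of 23446 genes. Counts, lengths and a divisor for each library gave back the RPKM to within 0.000501%. All sample columns were matched (0 unmatched).

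Counts were filtered with filterByExpr, scaled by TMM and fitted with 4 group means in edgeR 4.0.16 (R 4.3.3) by the quasi-likelihood method (8 residual degrees of freedom, two-sided). Benjamini-Hochberg adjustment ran over 12230 genes, at 5% FDR. Pairs of replicate libraries differed by more than counting noise, with chi-square over degrees of freedom from 1.45 to 2.89. The fit was tested on simulated data with the same spread for every gene and no GC trend. That test does not cover the wide spread of Cebpb or the GC trend of these libraries. Log2 CPM used a prior count of 2. RPKM gave levels between genes. GC content was that of the longest GENCODE M21 transcript of a gene, not of the exons that were counted. Similar level means within 0.5 of mean log2 CPM. Alternatives were RLE scaling, the RPKM divisor as library size, DESeq2 1.42.0, no low-count filter, the groups compared alone, a term for replicate number, removal of the GC and length trend, and each library left out.

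Members and gene lists were chosen with earlier results of these data known. Genes named were the members and their relatives, up to 3 genes per list and comparison with the smallest p past the threshold, the 4 closest in pattern to each member, and the highest marker of each list; Pax7 in the AA comparisons was added after its values were seen.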

Additional observations from a re-analysis of the deposited data

Results flagged for a closer look

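A difference between the media in the AA effect (DM minus GM, log2) passed 5% FDR for 18 genes of the lists, in edgeR's quasi-likelihood test of the difference itself. Over all tested genes, 2.58% were higher and 2.67% lower. For Cebpd the difference of the AA effects was -0.87 (-0.65 in GM, -1.52 in DM), a value listed here as a description, since Cebpd was chosen with this contrast known. The lists were also chosen with earlier results of these data known, so the adjusted p-values below are a description.

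Among inducers of Cebpb and Cebpd, Il6ra differed by 0.55 (adjusted p = 0.00578), Il1r1 by -0.35 (adjusted p = 0.00435), Tlr4 by -0.32 (adjusted p = 0.0265), Klf5 by -0.32 (adjusted p = 0.0444), Stat3 by -0.24 (adjusted p = 0.0429) and Nr3c1 by -0.23 (adjusted p = 0.0293). Among protein regulators, Cdk2 differed by 0.43 (adjusted p = 0.00132) and Celf1 by 0.26 (adjusted p = 0.0194). Among acute phase and inflammatory genes, Cxcl5 differed by -0.83 (adjusted p = 5.46e-06), Saa3 by -1.58 (adjusted p = 0.00633; 0.35 in GM and -1.23 in DM) and Nos2 by 0.97 (adjusted p = 0.00741; -1.2 in GM and -0.23 in DM). Lpl differed by -0.51 (adjusted p = 0.0481), Slc7a5 by -0.30 (adjusted p = 0.0435) and Gclm by -0.63 (adjusted p = 0.00211). Among muscle genes, Myod1 differed by 0.40 (adjusted p = 0.000341), Myog by 0.59 (adjusted p = 0.0105), Myh3 by 0.97 (adjusted p = 0.0087) and Myf5 by -0.37 (adjusted p = 0.0207).

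With single libraries left out, the highest adjusted p was 0.138 for Stat3, 0.0989 for Tlr4, 0.0710 for Nr3c1, 0.133 for Klf5, 0.0798 for Celf1, 0.145 for Lpl, 0.151 for Slc7a5, 0.0966 for Myf5 and 0.0602 for Myog, so these 9 calls were lost under at least 1 such setting. The other 9 list genes stayed past the threshold in each. With the GC and length trend removed, Klf5 had an adjusted p of 0.0624.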

How the results depend on the processing

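Direction held for Cebpa, Cebpd and Cebpg under every alternative run. Leaving out single libraries gave Cebpb values of -0.58 to 0.48 for DM against GM in PBS and of -1.75 to -0.68 for the difference of AA effects. By DESeq2, genes higher with AA in GM numbered 787 instead of 1194, and list genes 9 instead of 19 (11 to 20 with a library left out). List genes lower in the difference of AA effects numbered 11, 4 by DESeq2 and 6 to 10 with a library left out. The AA difference of Cebpz in DM, 0.01, was -0.0510 after correction for GC and length (-0.0517 with the replicate block added) and -0.0507 to 0.0743 with a library left out. Its difference between media in AA, -0.03, was 0.00122 with the RPKM divisor and -0.0904 to 0.00782 with a library left out. The cause was not tested.

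No pairing of libraries by replicate number was seen: over 18 same-number pairs, deviations from group means correlated between -0.0676 and 0.0823. The labels do not say whether libraries of the same number were prepared together, and these correlations could miss a weak shared effect. With the replicate block, the AA difference of Cebpa in GM was -0.48 and that of Cebpd -0.65, and the block changed no member's call. Among members, counts were lowest for Cebpb in DM-AA, at 59 to 107 reads. Other scalings moved the median of all genes by at most 0.0277 (log2).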

Other observations

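The 5 tested genes with the highest gene-wise biological coefficient of variation were Rpph1 (32.7%), Tpt1 (28.5%), Cebpb (24%), Hist1h2af (22.1%) and Hmga1 (21.4%), all named after their values were seen. Rpph1 was near the floor, from 0.116 CPM in its lowest library to 3.71 in its highest. The others ranged from 80.8 to 442 CPM for Tpt1, 17.8 to 71.0 for Hist1h2af, 2.46 to 17.4 for Hmga1 and 7.06 to 56.5 for Cebpb. Exon GC content was 67.1% for Rpph1, 53.1% for Tpt1, 68.4% for Hist1h2af and 61.4% for Hmga1, beside 67.2% for Cebpb.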
